A study of Mus musculus with 12 samples.

Results

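The response of splenic B cells to a CpG-ODN given on top of IM156 was measured by setting 3 libraries from mice that received both agents (ODN+IM156) against 3 libraries from mice that received IM156 alone (IM156). These 6 of the series' 12 libraries were chosen by their labels, with no measured value in the rule, although earlier results of these data were known. Every mouse was a wild-type C57BL/6 animal aged 7 weeks per the sample labels, although the series description calls the mice lupus-prone. Both groups had IM156 at 30 mg/kg into the peritoneum on days 0 and 2, and spleens were taken on day 4. The groups differ in the ODN, a class B CpG-ODN of which 50 µg went into the peritoneum on days 1 and 3. No vehicle injection is given for the IM156 group, so the ODN and its extra injections cannot be told apart. The other 6 libraries come from untreated mice (control) and mice given only the ODN (ODN), 3 of each. They entered the same statistical fit and are set beside the comparison at the end. No label says that the libraries of a group are separate animals, and p-values therefore measure only the spread between these samples.

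CpG-ODNs are short synthetic DNAs with unmethylated CpG motifs that mimic microbial DNA. They bind Toll-like receptor 9 (TLR9) in endosomes, and its adaptor MyD88 passes the signal to NF-kB and to interferon regulatory factors; B cells respond with growth and division, and dendritic and NK cells with interferons that act on neighbouring cells. IM156 is a biguanide, of the chemical class of metformin, and inhibits complex I of the mitochondrial respiratory chain. Since both groups carry IM156, its own effect is not part of this contrast.

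Total counts were 10019443 to 11285692 in the IM156 libraries and 9650775 to 11103365 with ODN+IM156. The ribosomal RNA row Rn45s took 4.78% to 8.0% and 5.18% to 8.22% of them. Levels below are CPM, counts relative to the TMM-scaled library size. The 28 tested B-cell identity genes summed to 18958 ± 355 CPM with IM156 and 18928 ± 490 with ODN+IM156 (SD, n = 3 each), with Cd79a, a chain of the B-cell receptor complex, at 642, 679 and 659 CPM and at 620, 665 and 690. The defining markers of other cells summed, in any of the 6 libraries, to at most 7.82 CPM for NK cells, 14.8 for T cells, 22.9 for neutrophils, 56.7 for dendritic cells, 84.1 for monocytes and macrophages, 123 for platelets, 179 for plasma cells and 369 for erythroid cells. Xist was at 10338 to 13011 counts in the 6 libraries and at 1 count in ODN replicate 3. That library touches the comparison only through the shared low-count filter, scaling and estimate of the spread.

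ODN on top of IM156 changed 293 of 11857 tested genes (2.47%; edgeR quasi-likelihood test, two-sided, called at a Benjamini-Hochberg adjusted p below 0.05). Of these, 206 were higher (1.74%) and 87 lower (0.734%). The rises were larger than the falls: 133 of the 206 were at least 2-fold, against 18 of the 87. The median log2 fold change over all tested genes was -0.0033. Interferon-inducible GTPases, interferon-stimulated genes, antigen presentation genes of MHC class I and genes of mitosis made up many of the rises. Immediate-early genes, Tsc22d3, Zfp36l2, Cxcr4 and Ahnak were among the falls. In 289 of the 293 called genes the 3 libraries of each group did not overlap, which was so for 2919 of all tested genes (24.6%).

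The count rested on every library of the comparison. It was 153, 114 and 121 without IM156 replicate 1, 2 or 3, and 174, 142 and 117 without ODN+IM156 replicate 1, 2 or 3. A fit of only these 6 libraries, which takes no spread from the more variable ODN group, called 892 of 11492 genes (7.76%), 590 higher (5.13%) and 302 lower (2.63%), including 291 of the 293. DESeq2 called 438. In alternatives chosen after seeing the data, the count was 543 without ODN replicate 1 and 445 without ODN replicate 3. Of the 76 called genes that the naming rule picks, 35 stayed called under all 21 alternatives, 26 higher and 9 lower, and none turned in direction under any.

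**Figure D1:**
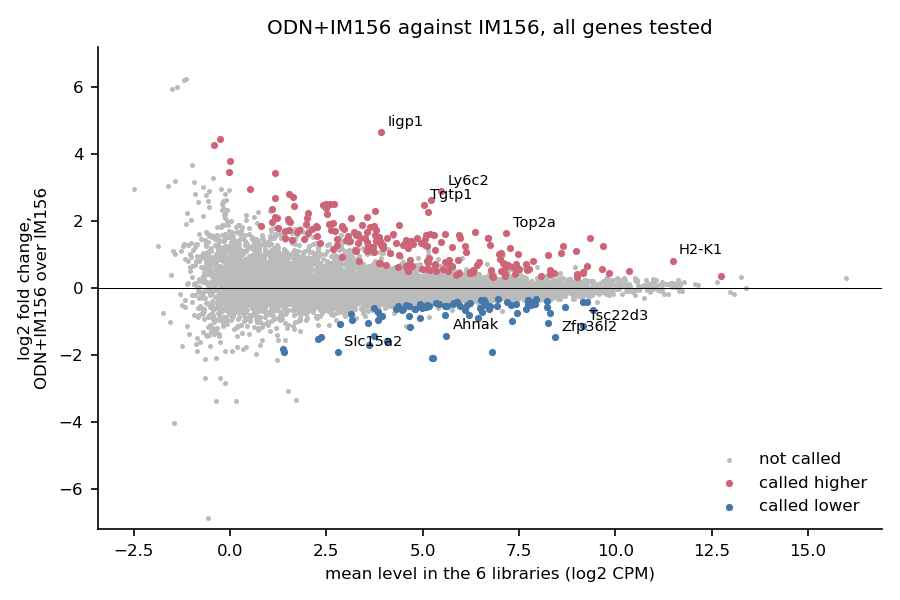
Each point is 1 of the 11857 tested genes, with its mean level over the 6 libraries on a log2 CPM axis and its log2 fold change (ODN+IM156 over IM156) on the vertical axis; red points were called higher, blue points lower. Iigp1 lies at 4.67, and the deepest called fall, Hbb-b1, at -2.09.

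Interferon-inducible GTPases had the highest share of called members among the 37 gene lists. The lists were chosen with earlier results of these data known, so this rank is a description only. These proteins, of the IRG and GBP families, load onto membranes around intracellular microbes and disrupt them. Of 17 tested members, 14 rose and none fell, where 1.74% of all tested genes rose. Their median log2 fold change was 1.29, and their summed level was 681, 616 and 592 CPM in the IM156 libraries and 1640, 1308 and 1453 CPM with ODN+IM156. The sums of the groups did not overlap, and between 13 and 17 members were called under each alternative.

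Iigp1, an IRG-family GTPase, stood at 1.70, 0.748 and 1.02 CPM with IM156 and at 37.5, 20.7 and 29.7 CPM with ODN+IM156. It went from near the lowest levels tested to a level shared by many expressed genes, 25.3-fold (log2 fold change 4.67, SE 0.45, adjusted p = 3.12e-06). Gbp10, a guanylate-binding protein, was at 1.80, 1.59 and 2.05 CPM and at 12.9, 8.88 and 9.13 (2.50, SE 0.31, adjusted p = 6.57e-05). Gbp6 of the same family was at 4.79, 3.93 and 5.03 CPM and at 24.9, 17.9 and 25.5 (2.31, SE 0.22, adjusted p = 2.79e-06). In each of these 3 genes the lowest ODN+IM156 library lay several times above the highest IM156 library, and ODN+IM156 replicate 1 was above replicate 2.

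Tgtp1, an IRG GTPase at chr11:48985329-48992246 (GRCm38.p6, RefSeq), was at 9.18, 10.7 and 10.1 CPM with IM156 and 65.8, 46.6 and 54.7 with ODN+IM156, a 5.59-fold rise (log2 fold change 2.48, SE 0.19, adjusted p = 3.19e-07). Its near-identical neighbour Tgtp2 had nearly the same values (4.83-fold), and Olfr56 covers the 3' ends of both on the opposite strand, so the source of these reads is uncertain. The other called members were Gbp2, Irgm1, Gm12250, Gbp7, Irgm2, Gvin1, Igtp, Gbp8 and Gbp5, with log2 fold changes from 0.84 for Gbp5 to 1.61 for Gbp2. The 3 members that missed the threshold also had positive values: Gbp4 at 0.56 (adjusted p = 0.0515), Gbp3 at 0.45 (adjusted p = 0.127) and Gbp9 at 0.39 (adjusted p = 0.236). They are named because they are the remainder of the list, after their values were seen.

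Promoters of these genes are known to carry the interferon-stimulated response element (ISRE), which is bound by interferon regulatory factors. Windows from 250 bases before to 50 bases after the start of transcription (RefSeq, GRCm38.p6) were given for 9 of the 14 called members. The ISRE core, GAAA and GAAA separated by any 2 bases and searched on both strands, was present in all 9, in 32 of 156 called-higher genes with a window (20.5%), in 2 of 64 called-lower genes (3.12%) and in 360 of 8998 tested genes (4.00%). It was in all 10 tested GTPases with a window, called or not, and in 4 of 15 called (26.7%) and 20 of 39 tested (51.3%) members of the type I interferon-stimulated list with a window. The 9 sites are shown because they are the sequence the group shares. Each is written 5′ to 3′ on the strand that holds the motif, with the motif in capitals:
Tgtp1: tccaggaatcGAAACTGAAAcctacctgac
Tgtp2: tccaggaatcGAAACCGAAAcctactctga
Irgm1: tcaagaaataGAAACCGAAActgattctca
Irgm2: tccaggaactGAAACTGAAAgctgttcggg
Igtp: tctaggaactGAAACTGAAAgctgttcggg
Gm12250: ccaagaacatGAAACTGAAAgcagatttct
Gbp2: ttaagacagtGAAAGTGAAActaaaagagt
Gbp5: tctctaaactGAAATTGAAActacacaagt
Gbp7: atggagaactGAAACTGAAActgcacacac
The motif lies at chr11:48992314-48992323 for Tgtp1, 77 bases before the start, and at chr3:142620604-142620613 for Gbp2, 59 bases before it. In the other 7 it begins between 24 bases (Irgm1) and 165 bases (Gbp5) before the start. A match describes the sequence and does not show binding.

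Type I interferon-stimulated genes rose in 21 of 53 tested cases and none fell, where 1.74% of all tested genes rose. The list had a median log2 fold change of 0.58 and 51 positive values. Their summed level was 6142 ± 459 CPM with IM156 and 7619 ± 147 with ODN+IM156. Ly6c2, a surface antigen of monocytes and lymphocytes at chr15:75108161-75112066, was at 11.5, 9.26 and 10.8 CPM and at 80.0, 68.5 and 87.3, a 7.47-fold rise (log2 fold change 2.90, SE 0.26, adjusted p = 2.50e-06). Ifi44, an antiviral protein gene, was at 2.29, 1.87 and 1.71 CPM and at 10.9, 11.5 and 10.7. Both genes were several times higher in every ODN+IM156 library than in any IM156 library.

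Ly6a, which encodes the stem cell antigen Sca-1, rose from 339, 315 and 311 CPM with IM156 to 683, 731 and 672 (2.16-fold). Ifitm3, which restricts virus entry, was at 11.3, 7.29 and 8.19 CPM and at 29.7, 33.9 and 35.1 (3.69-fold). The groups did not overlap in either gene. Oasl2, of the oligoadenylate synthetase family, rose 3.03-fold (adjusted p = 0.00116).

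Isg15, a ubiquitin-like modifier, rose less, from 20.5, 15.9 and 18.7 CPM to 32.8, 29 and 36.2 (log2 fold change 0.83, SE 0.17, adjusted p = 0.0088). Its call was lost without IM156 replicate 2 (adjusted p = 0.0786) or ODN+IM156 replicate 3 (adjusted p = 0.0721). Irf7, the regulator of type I interferon genes, was at 17.6, 17.8 and 19.7 CPM and at 32.2, 24 and 30.8 (0.66, SE 0.16, adjusted p = 0.0339). It lost its call without any 1 of IM156 replicates 1, 2 and 3 and ODN+IM156 replicates 1 and 3 (adjusted p from 0.0956 to 0.148), and the 3' end of Irf7 is covered by Phrf1 on the other strand. The count of 21 on the list was 12 without IM156 replicate 2, 13 without ODN+IM156 replicate 3 and 31 higher with 1 lower in the fit of 6 libraries.

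Further members of the list were chosen after their values were seen, called or not. Among those called, Oas2 was at 1.48 (adjusted p = 0.00291), Ifit2 at 1.11 (adjusted p = 0.00805) and Rtp4 at 0.88 (adjusted p = 0.00198). Among those that missed the threshold, Ifit1 was at 0.66 (adjusted p = 0.197), Ifit3 at 0.54 (adjusted p = 0.184), Mx1 at 0.53 (adjusted p = 0.259) and Usp18 at 0.51 (adjusted p = 0.0968). Irf1 and Socs1, which interferons are known to induce, belong to no list and were also chosen after their values were seen. Irf1, a transcription factor, was at 221, 248 and 284 CPM and at 579, 475 and 497 (log2 fold change 1.04, SE 0.18, adjusted p = 0.00172). Socs1, the feedback inhibitor of JAK kinases, was at 4.09, 4.21 and 4.35 CPM and at 16, 9.09 and 11.9 (1.55, SE 0.30, adjusted p = 0.00658). Neither gene overlapped between the groups.

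By the rule for the largest changes, Serpina3f and Cxcl9 were also named. Serpina3f, a serine protease inhibitor, was at 9.57, 12.3 and 8.96 CPM and at 66.6, 51.0 and 75.0, a 6.24-fold rise (adjusted p = 7.52e-05). The chemokine gene Cxcl9, which draws T and NK cells, was at 3.89, 4.30 and 1.96 CPM and at 20.8, 6.13 and 16 (log2 fold change 2.09, SE 0.41, adjusted p = 0.00738). ODN+IM156 replicate 2 was the lowest library of its group in both. The Cxcl9 call was lost without IM156 replicate 3 (adjusted p = 0.0691) or ODN+IM156 replicate 1 (adjusted p = 0.0535).

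**Figure D2:**
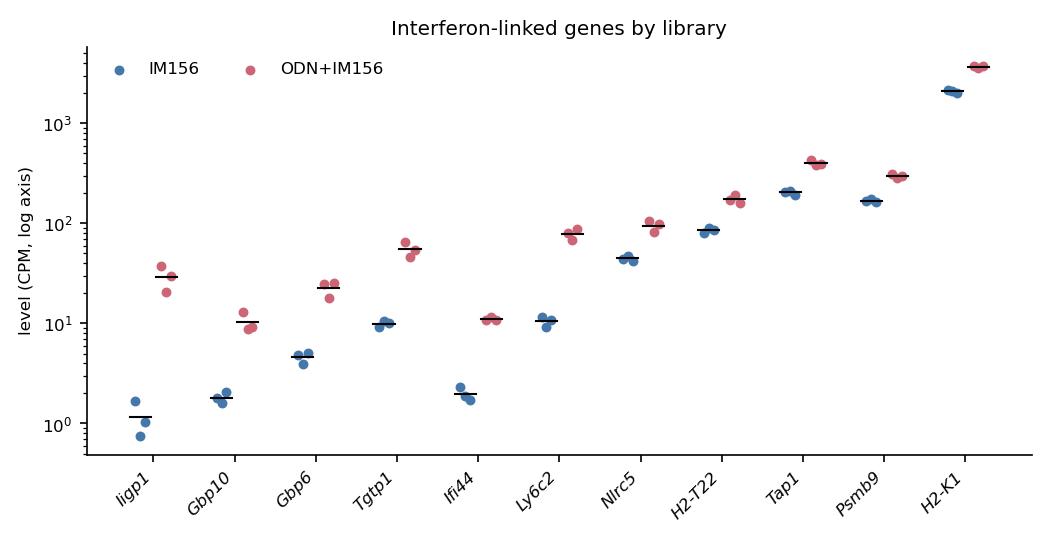
Points give the level of 11 interferon-linked genes in each of the 3 IM156 (blue) and 3 ODN+IM156 (red) libraries, in CPM on a log axis; black lines are group means. In every gene shown the red points lie above all blue points, from Iigp1 near 1 CPM with IM156 to H2-K1 at 2005 CPM or more.

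Genes that load peptides onto MHC class I rose in 10 of 20 tested cases and none fell, where 1.74% of all tested genes rose. All 20 values were positive (median log2 fold change 0.42). H2-K1, the heavy chain of a classical class I molecule at chr17:33996012-34000619, was at 2131, 2125 and 2005 CPM with IM156 and at 3781, 3574 and 3702 with ODN+IM156 (0.82, SE 0.078, adjusted p = 2.96e-06). Tap1, a subunit of the peptide transporter, was at 208, 212 and 193 CPM and at 429, 383 and 395. Psmb9, a catalytic subunit of the immunoproteasome, was at 168, 175 and 164 CPM and at 313, 282 and 297 (0.81, SE 0.090, adjusted p = 1.46e-05). Replicates of each group lay close together in these genes and the groups were far apart.

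Nlrc5, the transactivator of class I genes, was at 44.4, 47.3 and 42.4 CPM and at 105, 82.5 and 97.8 (2.13-fold, adjusted p = 3.57e-05). H2-T22, a non-classical class I gene, rose 2.05-fold (adjusted p = 9.39e-06), although an antisense transcript covers its 3' end. B2m, the light chain of all class I molecules, rose by 0.36 (SE 0.089, adjusted p = 0.0346). The list's count of 10 was 6 without IM156 replicate 2 or 3 or without ODN+IM156 replicate 1 or 3. Of the MHC class II genes, 0 of 12 were called in the fit of 12 libraries (1 in the fit of 6, 0 by DESeq2). The share over all tested genes was 2.47%. The list median was -0.0020, and the list sum was 23223 ± 512 CPM with IM156 and 21978 ± 337 with ODN+IM156. Cd74, the class II invariant chain, was at 3186, 3333 and 3439 CPM and at 3149, 2992 and 3166 (-0.10, adjusted p = 0.695).

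Genes of mitosis had higher levels with ODN+IM156, with a wider spread between libraries. Of 68 tested members 67 had positive values, with a median log2 fold change of 1.18. Of the 68, 24 were called higher and none lower, where 1.74% of all tested genes were higher. Their summed level was 2326, 2176 and 1926 CPM in the IM156 libraries and 2828, 3869 and 3540 with ODN+IM156. The sums did not overlap, and ODN+IM156 replicate 1 was the lowest of its group.

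Top2a, the topoisomerase that untangles replicated chromosomes (chr11:98992947-99024199), was at 88.2, 69.5 and 52.8 CPM and at 159, 264 and 231, a 3.11-fold rise (log2 fold change 1.64, SE 0.34, adjusted p = 0.0107). The proliferation marker Mki67 was at 44.3, 29.7 and 24.8 CPM and at 59.2, 108 and 110 (1.49, SE 0.37, adjusted p = 0.0398). Cdk1, the kinase of mitotic entry, was at 12, 14.5 and 12.7 CPM and at 26.1, 42.6 and 30.8 (1.34, SE 0.31, adjusted p = 0.0256). No IM156 library reached the lowest ODN+IM156 library in these 3 genes. Kif11, Hmmr and Kif14, which serve the mitotic spindle, and Ube2c, a ubiquitin-conjugating enzyme of mitotic exit, rose 3.16-fold to 3.81-fold; Tnnc2 covers the 3' end of Ube2c on the other strand.

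These calls depended on the estimate of the spread. The number of mitosis genes called higher was 1 in a robust fit and 61 (with 1 lower) in the fit of 6 libraries. It was 5, 2 and 0 (with 1 lower) without IM156 replicate 1, 2 or 3, 0 without ODN+IM156 replicate 2 or 3, and 58 (with 1 lower) with no low-count filter. Leaving out libraries that do not belong to the comparison, an alternative chosen after seeing the data, gave 13 without control replicate 1, 48 (with 1 lower) without ODN replicate 1 and 44 without ODN replicate 3. The list median lay between 1.08 and 1.41 under all 21 alternatives. Top2a, Mki67 and Cdk1 lost their calls in the robust fit and without IM156 replicate 2 or 3 or ODN+IM156 replicate 2 or 3, with adjusted p up to 0.173, 0.273 and 0.209. Mki67 and Cdk1 lost them also without IM156 replicate 1, and Mki67 under DESeq2 and without control replicate 1.

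Many mitosis genes are known to be repressed in resting cells through the cell cycle genes homology region (CHR), to which the DREAM complex binds. The CHR letters TTTGAA, searched on both strands of the same promoter windows, were present in 17 of the 21 called mitosis genes that had a window (81.0%), against 1289 of 8998 tested genes (14.3%). The share of tested mitosis genes was 42 of 54 (77.8%), called or not. The CCAAT box (letters CCAAT), which can lie beside it, was in 17 of the 21, against 3901 of 8998 tested genes (43.4%). Sites just before the start of 5 of the genes described are shown, on the strand that holds the motif and with the motif in capitals, since they are what these genes share:
Cdk1: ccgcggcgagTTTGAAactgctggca
Top2a: cctagtttcaTTTGAAcctttatcta
Kif11: gcgcctcaatTTTGAAaaatggagac
Ube2c: gccgcccgcgTTTGAAttgcaaccct
Mki67: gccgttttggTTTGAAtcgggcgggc
The site of Top2a is at chr11:99024207-99024212 and that of Cdk1 at chr10:69352922-69352927, 23 and 15 bases before the start. That of Mki67 lies 98 bases before its start.

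Genes of DNA replication and S phase were positive in 61 of 67 tested cases, with a median of 0.48. Of the 67, 8 were called higher and none lower, where 1.74% of all tested genes were higher. The 8 were E2f8, Cdc6, Rrm2, Tcf19, Clspn, Pole, Asf1b and E2f2. Rrm2, a subunit of ribonucleotide reductase, was at 6.18, 7.10 and 5.80 CPM and at 14.6, 25.3 and 23.3 (3.31-fold, adjusted p = 0.0278). Cdc6, which loads the replicative helicase, was at 4.79, 2.62 and 2.39 CPM and at 11.4, 13.2 and 10.4 (3.57-fold, adjusted p = 0.0424). Mcm6, a subunit of that helicase, was at 47.8, 42.9 and 38 CPM and at 54.5, 64.6 and 58.0, which did not pass the test (0.46, SE 0.16, adjusted p = 0.149). The count of 8 was 1 in the robust fit, 30 with no filter, 31 in the fit of 6 libraries, 26 without ODN replicate 1, 20 without ODN replicate 3 and 4 without control replicate 1. It was 0, 1 and 0 without IM156 replicate 1, 2 or 3, and 1 and 0 without ODN+IM156 replicate 2 or 3.

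Of 21 tested G1 genes 2 were called, the D-type cyclin genes Ccnd1 and Ccnd2, both higher, where 1.74% of all tested genes were higher. Ccnd2, which carries B cells into the cycle, was at 149, 171 and 147 CPM and at 267, 262 and 244 (log2 fold change 0.73, SE 0.12, adjusted p = 0.00102). Ccnd1 was at 13.9, 15.7 and 11.2 CPM and at 37.5, 29.9 and 36.3 (1.35, SE 0.18, adjusted p = 0.000194). Neither overlapped between the groups, and both were called under all 21 alternatives. Ccnd3, the remaining D-type cyclin gene, was at 78.5, 75.7 and 74.3 CPM and at 95.1, 105 and 103, without overlap, and did not pass (0.41, SE 0.14, adjusted p = 0.16). The 3' ends of both lie under a gene on the opposite strand, an antisense transcript for Ccnd2 and LTO1 for Ccnd1. Myc, the growth regulator, was at 75.4, 67.0 and 57.6 CPM and at 63.1, 68.3 and 58.6 (-0.07, SE 0.14, adjusted p = 0.873), with the groups intermixed.

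Growth and energy genes showed few calls, where 2.47% of all tested genes were called. Counts of 0 or 1 in lists of this size lie near that share. Of 82 cytosolic ribosomal protein genes none was called, with values between -0.08 and 0.33 and a median of 0.12, and their sum was 103663 ± 5290 CPM with IM156 and 111860 ± 6686 with ODN+IM156. Of those 82, 10 were higher in the fit of 6 libraries, 5 under DESeq2, 3 without ODN replicate 1 or 3 and 2 with no filter. Rpl32 was at 2594, 2817 and 3313 CPM and at 3108, 3735 and 3398, so that the groups overlapped (0.23, SE 0.10, adjusted p = 0.304). Processed pseudogenes of ribosomal protein genes can share reads with them, and Cand2 covers the 3' end of Rpl32.

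For the respiratory chain, 0 of 37 complex I subunits and 0 of 42 subunits of complexes II to V were called. The share over all tested genes was 2.47%, and the list medians were -0.01 and 0.00. The complex I count was 0 under all 21 alternatives, DESeq2 included. That of complexes II to V was 1 in the fit of 6 libraries and 0 otherwise. Ndufb5 of complex I was at 150, 140 and 145 CPM and at 142, 138 and 148. Uqcrh of complex III was at 449, 494 and 544 CPM and at 461, 533 and 491. The groups overlapped in both genes.

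In glycolysis 1 of 19 tested genes was called, where 2.47% of all tested genes were called. It was Gpi1, the isomerase of the second step, at 123, 124 and 125 CPM and at 153, 166 and 158 (log2 fold change 0.36, SE 0.093, adjusted p = 0.0464). The call was lost without each of the 6 libraries in turn and with library totals alone (adjusted p up to 0.185). Ldha was at 108, 115 and 117 CPM and at 127, 119 and 143 (0.20, adjusted p = 0.336). None of 21 TCA cycle, 17 AMPK, 33 nucleolar, 30 sterol and fatty acid synthesis, 38 endoplasmic reticulum and 78 mitochondrial ribosomal protein genes was called in the fit of 12 libraries. In the fit of 6 libraries, where 7.76% of all tested genes were called, these 6 lists had 1, 2, 0, 4, 0 and 5 called members. They had at most 2 under any other alternative.

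Of 24 ATF4 and integrated stress response genes 2 were called, both lower, where 0.734% of all tested genes were lower. Ddit4, an inhibitor of mTORC1, was at 208, 206 and 217 CPM with IM156 and at 72.5, 136 and 110 with ODN+IM156 (log2 fold change -0.99, SE 0.24, adjusted p = 0.0366). The groups did not overlap, but the call was lost under DESeq2, in the robust fit and without IM156 replicate 1, 2 or 3 or ODN+IM156 replicate 1 or 3, with adjusted p up to 0.25. Cebpb, the second, was at 10.5, 10.8 and 12 CPM and at 7.36, 6.45 and 5.58 and kept its call in 11 of the 21 alternatives, none of them without a library of the comparison. Ddit3 (-0.07, adjusted p = 0.842) and Asns (-0.46, adjusted p = 0.817), textbook targets of ATF4, did not pass.

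**Figure D3:**
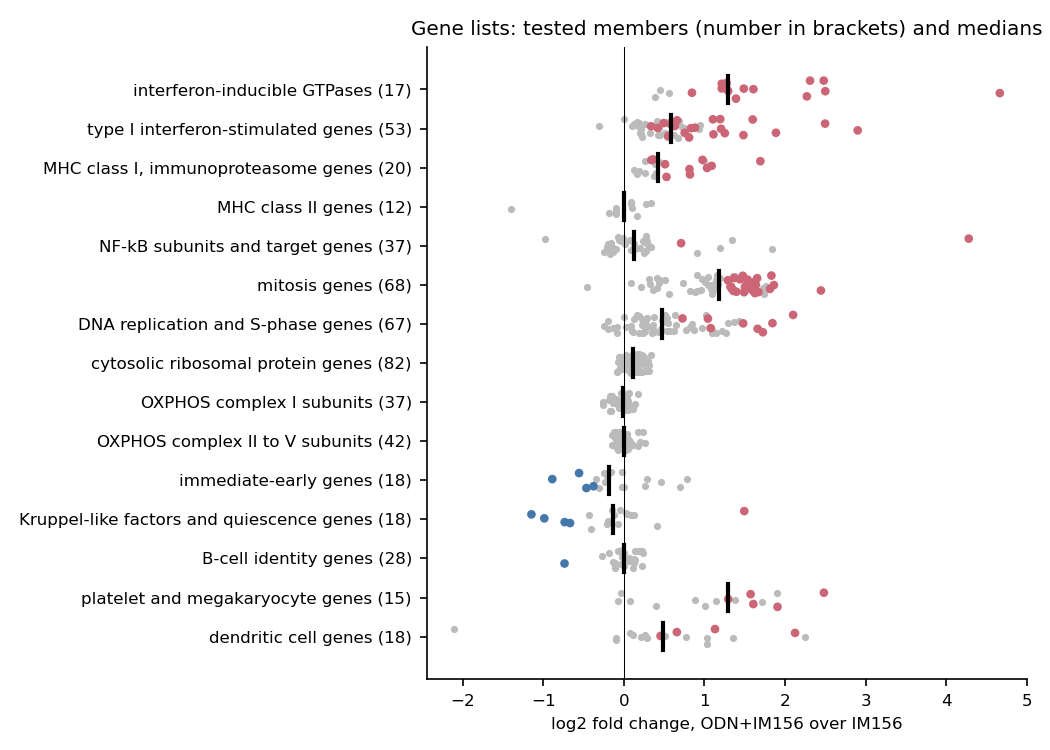
Each point is a tested member of 1 of 15 gene lists, placed by its log2 fold change, ODN+IM156 over IM156; red points were called higher, blue points lower and grey points were not called. Black bars are list medians, from 1.30 for platelet genes and 1.29 for interferon-inducible GTPases down to -0.19 for immediate-early genes.

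The falls were smaller than the rises and included regulators of quiescence and of RNA decay. Tsc22d3 (GILZ), a glucocorticoid-induced brake on cell activation on chromosome X at chrX:140539528-140600522, was at 712, 753 and 882 CPM with IM156 and at 296, 381 and 383 with ODN+IM156 (log2 fold change -1.15, SE 0.17, adjusted p = 0.000487). Zfp36l2, which binds AU-rich mRNAs and promotes their decay (chr17:84183924-84187947), was at 530, 503 and 483 CPM and at 125, 219 and 206 (-1.46, SE 0.26, adjusted p = 0.00329). Both were higher in all 3 IM156 libraries than in any ODN+IM156 library, and ODN+IM156 replicate 1 was the lowest. The Zfp36l2 call was lost only in the robust fit (adjusted p = 0.116).

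Ahnak, a very large scaffold protein under the cell membrane, was at 70.0, 66.7 and 77.5 CPM and at 31.2, 24.7 and 23.9 (-1.42, SE 0.15, adjusted p = 6.65e-06). Txnip, which limits glucose uptake, was at 836, 847 and 843 CPM and at 490, 611 and 490 (-0.67, SE 0.11, adjusted p = 0.0011), with the antisense gene Gm15441 over its 3' end. Klf6, of the Kruppel-like family, fell by 0.73 (adjusted p = 0.00613), a call lost without IM156 replicate 1 or ODN+IM156 replicate 2 or 3 (adjusted p from 0.051 to 0.0545). Of the 18 tested genes on the Kruppel-like factor and quiescence list 4 fell and 1 rose, Il7r. Over all tested genes 0.734% fell and 1.74% rose. Without each of the 6 libraries in turn 2 or 3 genes of the list fell and none rose. Klf2, the factor that keeps lymphocytes quiescent, was at 788, 830 and 903 CPM and at 686, 621 and 597, groups that do not overlap, and missed the threshold (-0.41, SE 0.11, adjusted p = 0.0689). Klf4 was at 156, 144 and 138 CPM and at 151, 103 and 141, with overlap (-0.15, adjusted p = 0.719).

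Among 18 immediate-early genes 4 fell and none rose, with a median of -0.19, where 0.734% of all tested genes fell. Dusp1, a phosphatase of MAP kinases, was at 119, 118 and 101 CPM and at 55.0, 63.2 and 64.3 (-0.89, SE 0.14, adjusted p = 0.000815). Dusp2, of the same family, was at 495, 493 and 503 CPM and at 310, 346 and 358 (-0.56, SE 0.11, adjusted p = 0.00758), a call lost without ODN+IM156 replicate 1 (adjusted p = 0.0535). Both were lower in every ODN+IM156 library than in any IM156 library. Fos and Junb, subunits of the AP-1 transcription factor, fell by 0.46 and 0.38 (adjusted p = 0.0436 and 0.0417); both calls were lost without control replicate 2, without IM156 replicate 1, 2 or 3 and without ODN+IM156 replicate 2 or 3 (adjusted p up to 0.214 and 0.206). Prdx2 covers the 3' end of Junb on the other strand.

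Surface molecules were among the falls. Cd69, which holds lymphocytes in tissue and marks early activation, was at 94.9, 94.8 and 89.6 CPM and at 52.3, 50.7 and 58.1 (-0.79, SE 0.12, adjusted p = 0.000394). Cxcr4, the receptor for the chemokine CXCL12, was at 362, 411 and 459 CPM and at 165, 225 and 210 (-1.04, SE 0.25, adjusted p = 0.0303). Its groups did not overlap, but the call was lost without each of the 6 libraries in turn (adjusted p from 0.0578 to 0.15), in the robust fit (0.234) and under DESeq2 (0.0707). Cd55, which protects cells from complement, was at 268, 242 and 242 CPM and at 176, 154 and 153 (-0.63, SE 0.10, adjusted p = 0.00113). Il6ra, the interleukin-6 receptor, fell from 17.6, 15.4 and 15.4 CPM to 6.51, 8.14 and 8.95, a call kept in 16 of 21 alternatives and lost without IM156 replicate 1, 2 or 3 or ODN+IM156 replicate 1 or 2 (adjusted p up to 0.0902).

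The rule for the largest falls also named Slc15a2, Gm8221, Apol7c, Antxr2, Lilra6 and Qrfp. Slc15a2, a peptide transporter, was at 7.78, 11.3 and 14 CPM and at 3.11, 0.951 and 4.52 (-1.92, SE 0.38, adjusted p = 0.0088), and was not called in the robust fit (adjusted p = 0.1) or without IM156 replicate 3 (adjusted p = 0.0664). Apol7c, of the apolipoprotein L family, was at 24.1, 20.4 and 13.8 CPM and at 8.59, 4.65 and 7.98 (-1.45, SE 0.25, adjusted p = 0.00267). Gm8221, a pseudogene on the same chromosome (chr15:77618968-77627398), had similar values (-1.70, adjusted p = 0.000174). Whether Apol7c and Gm8221 share reads was not tested. Antxr2, an anthrax toxin receptor, was at 35.5, 38.3 and 31.9 CPM and at 17.8, 12.9 and 16.7 (2.23-fold lower, adjusted p = 0.0115), without a call in the robust fit and without IM156 replicate 2 or ODN+IM156 replicate 2 or 3 (adjusted p up to 0.0767). Qrfp kept its call in 12 of the 21 alternatives, none of them without a library of the comparison, and Lilra6 in 19, not without IM156 replicate 3 or ODN+IM156 replicate 3.

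**Figure D4:**
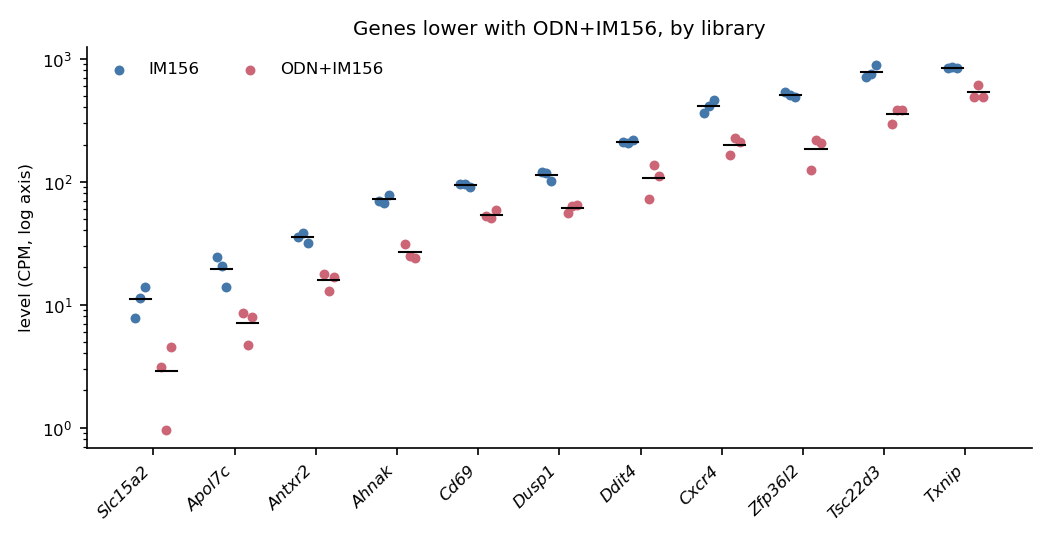
Points give the level of 11 genes called lower in each of the 3 IM156 (blue) and 3 ODN+IM156 (red) libraries, in CPM on a log axis; black lines are group means. In every gene shown the 3 red points lie below the 3 blue points, with Slc15a2 spread most.

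Genes of the receptor pathway of the ODN itself and NF-kB targets were called in small numbers from short lists, where 2.47% of all tested genes were called. Tlr9 had 1, 6 and 5 counts with IM156 and 1, 6 and 6 with ODN+IM156, too few to be tested. Of 26 tested genes of endosomal TLR signalling, Irf8, a transcription factor of B cells and dendritic cells, rose from 757, 785 and 753 CPM to 1090.0, 1018 and 1038 (log2 fold change 0.46, SE 0.084, adjusted p = 0.0044). Ikbkb, a kinase that activates NF-kB, fell from 290, 281 and 270 CPM to 210, 192 and 208 (-0.46, SE 0.10, adjusted p = 0.0205), a call lost without each of the 6 libraries in turn (adjusted p up to 0.113). Of 37 NF-kB subunits and targets 2 were called, Ccl4 and Traf1, both higher. Ccl4 had 2 counts over the 3 IM156 libraries and 44 over the ODN+IM156 libraries, so that it could pass the low-count filter only through groups where it is higher. The number called was 5 in the fit of 6 libraries, 1 without IM156 replicate 1 and 0 without IM156 replicate 2 or 3 or ODN+IM156 replicate 2 or 3. Traf1, an adaptor of TNF receptors, was at 43.7, 36.4 and 34.4 CPM and at 57.5, 64.3 and 65.2 (0.71, SE 0.15, adjusted p = 0.0148), and lost its call without IM156 replicate 2 or 3 or ODN+IM156 replicate 2 or 3 (adjusted p up to 0.108).

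The feedback inhibitors of NF-kB did not pass: Nfkbia was at 1335, 1291 and 1249.5 CPM and at 1193, 1235 and 1185 (-0.10, adjusted p = 0.772), and Tnfaip3 was at -0.07 (adjusted p = 0.882). Costimulation genes on day 4 did not pass either. Cd86 was at 23.0, 22.8 and 25.7 CPM and at 28.2, 24.8 and 26.9 (0.16, adjusted p = 0.612), and Cd83 at 241, 241 and 238 CPM and at 254, 289 and 253 (0.14, adjusted p = 0.636). Of 20 activation and costimulation genes, Cd69 alone was called in the fit of 12 libraries and 5 were in the fit of 6. The shares over all tested genes were 2.47% and 7.76%.

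Among markers of B-cell states, called members were 1 of 28 identity genes, 2 of 16 follicular genes and 2 of 19 marginal zone genes. Of 19 age-associated genes 3 were called higher and 1 lower, where 2.47% of all tested genes were called. Vpreb3 was the 1 called member of 28 B-cell identity genes, at 232, 225 and 199 CPM and at 142, 122 and 127 (-0.74, SE 0.13, adjusted p = 0.00198). Plac8 of marginal zone B cells was at 668, 649 and 639 CPM and at 895, 1134 and 890 (0.58, SE 0.12, adjusted p = 0.0126), a call lost without IM156 replicate 2 or 3 or ODN+IM156 replicate 2 (adjusted p up to 0.0934). Fcrl5, an inhibitory receptor of marginal zone and age-associated B cells, was at 29.6, 30.8 and 30.8 CPM and at 38.1, 63.1 and 48.1 (0.71, adjusted p = 0.0157), called in 16 of 21 alternatives and lost without every library of the comparison but ODN+IM156 replicate 1. Of 16 follicular genes, Cd55 and Cxcr4 fell, and Fcer2a (CD23) was at 304, 285 and 286 CPM and at 258, 253 and 251 without passing the test (-0.20, adjusted p = 0.402).

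Of 19 genes of age-associated B cells, Fcer1g, Itgax and Fcrl5 rose and Ahnak fell; without IM156 replicate 2, 1 rose and 1 fell, and in the fit of 6 libraries 7 rose and 1 fell. Itgax, which encodes CD11c, was at 6.28, 4.95 and 6.40 CPM and at 14.9, 10.3 and 13.5 (1.13, SE 0.21, adjusted p = 0.00525), and not called without IM156 replicate 2 (adjusted p = 0.0535). Tbx21, the defining transcription factor of these cells, was at 3.19, 2.99 and 2.64 CPM and at 6.51, 7.40 and 6.38, higher in every ODN+IM156 library, and missed the threshold (1.20, SE 0.37, adjusted p = 0.099). Of 18 plasma cell and 20 germinal centre genes none was called in the fit of 12 libraries, and 3 and 4 were in the fit of 6. Over all tested genes these fits called 2.47% and 7.76%. The 3 plasma cell markers Sdc1, Jchain and Prdm1 summed to 172 to 179 CPM with IM156 and to 87.7 to 129 with ODN+IM156, without overlap. Jchain, the joining chain of secreted antibodies, made up most of it, at 157, 167 and 166 CPM and at 118, 78.5 and 111 (-0.68, SE 0.29, adjusted p = 0.285). Prdm1 was at 9.47, 5.52 and 5.97 CPM and at 6.70, 4.33 and 7.09, with overlap, and Xbp1 was at -0.16 (adjusted p = 0.609).

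Transcripts of other cell types moved with the ODN, at low levels. In bulk RNA, a changed number of such cells and a changed amount of RNA per cell cannot be told apart. Platelet genes rose in 5 of 15 tested cases, with a median of 1.30, where 1.74% of all tested genes rose. The 4 defining platelet markers Pf4, Ppbp, Itga2b and Gp9 summed to 38.3 to 40.6 CPM with IM156 and 90.2 to 123 with ODN+IM156. Ppbp, a platelet chemokine, was at 16.3, 19.8 and 15 CPM and at 56.6, 41.7 and 53.4 (2.97-fold, adjusted p = 0.000253). Pf4 was at 9.57, 12.3 and 16.6 CPM and at 36.3, 27 and 31.7 (2.46-fold, adjusted p = 0.000736). All ODN+IM156 libraries were above all IM156 libraries in both, and 8 genes of the list were called under DESeq2, with no filter and in the fit of 6 libraries.

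Dendritic cell genes were called higher in 4 of 18 tested cases, Xcr1, Itgax, Naaa and Irf8, where 1.74% of all tested genes were higher. The number was 2 without IM156 replicate 2, 7 with no filter and 9 in the fit of 6 libraries. Itgax is also on the age-associated B-cell list and Irf8 on the endosomal TLR list, so these are the same calls as above. Xcr1, the chemokine receptor of cross-presenting dendritic cells (chr9:123852315-123862029), was at 4.79, 4.86 and 3.50 CPM and at 29.8, 8.88 and 18.4 (4.35-fold, adjusted p = 0.0015). The 5 defining markers summed to 12.7 to 23.4 CPM with IM156 and 30.0 to 56.7 with ODN+IM156. Siglech, the marker of plasmacytoid dendritic cells, had 8 counts over the IM156 libraries and 1 over the ODN+IM156 libraries. Monocyte and macrophage genes rose in 4 of 25 cases, Ly6c1, Fcgr4, Cd5l and Mpeg1, and 2 of 25 without IM156 replicate 2 or 3 or ODN+IM156 replicate 1 or 3; their 7 defining markers summed to 29.6 to 53.5 CPM and 52.9 to 84.1 CPM, ranges that overlap.

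NK-cell genes rose in 3 of 8 tested cases, Nkg7, Gzma and Il2rb, of 17 listed, where 1.74% of all tested genes rose. The number was 0 or 1 without each library of the comparison in turn. The NK-cell markers summed to 0.852 to 1.89 CPM with IM156 and 4.16 to 7.82 with ODN+IM156. Over the 3 IM156 and the 3 ODN+IM156 libraries, Ncr1 had 0 and 16 counts, Gzma 10 and 78 and Nkg7 5 and 57. Klrb1c had 18 and 27 counts, and Prf1 went the other way with 12 and 4. S100a9, a neutrophil gene, was at 0.898, 2.43 and 2.64 CPM and at 7.92, 8.88 and 11.4 (4.73-fold, adjusted p = 0.0169), and was not called in the robust fit or without IM156 replicate 1, 2 or 3 or ODN+IM156 replicate 3 (adjusted p up to 0.139). Genes of these lists that are near 0 with IM156 could pass the low-count filter only through groups where they are higher, so their counts give no support to a group change. Of 11 tested T-cell genes none was called in the fit of 12 libraries (1 under DESeq2, with no filter and in the fit of 6); Cd3e had 2 counts over the IM156 libraries and 6 over the others. The 5 defining T-cell markers summed to 3.41 to 7.48 CPM with IM156 and 8.45 to 14.8 with ODN+IM156, mostly Cd8a (123 and 334 counts), while Cd3d had 42 and 23 counts. The T-cell list as a whole summed to 334 to 357 CPM and 301 to 317 CPM, lower with ODN+IM156. The NK-cell list summed to 23.5 to 36.6 CPM and 36.3 to 47.9 CPM, ranges that overlap.

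Haemoglobin transcripts were lower: Hba-a1 was at 266, 218 and 45.5 CPM with IM156 and at 59.1, 23.3 and 57.0 with ODN+IM156 (-1.92, SE 0.45, adjusted p = 0.0256). The groups overlapped through IM156 replicate 3, and the 3 called erythroid genes, Hba-a1, Hbb-bs and Hbb-b1, were all lost under DESeq2, in the robust fit, without IM156 replicate 1 or 2 and without each ODN+IM156 library. Without IM156 replicate 3, 5 genes of the list were lower. Hbb-bs and Hbb-b1 are near-identical and may hold the same reads. The summed defining markers of dendritic cells, NK cells, neutrophils and platelets were higher in all ODN+IM156 libraries, as were the interferon-linked genes above, and the part of other cells in those results was not tested. The summed levels of the B-cell identity genes overlapped between the groups.

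The same ODN contrast can be read in the other 6 libraries, ODN against control, which share no library with the comparison above. There 1255 genes were called (10.6%; 870 higher, 7.34%; 385 lower, 3.25%), and 598 in a fit of those 6 libraries alone. Of the 293 genes called with IM156 present, 193 were also called in ODN against control, all in the same direction (153 higher, 40 lower). They are 65.9% of the 293 and 15.4% of the 1255. Of the 293, 283 had the same sign in the other contrast, and of the 1255, 1047 (83.4%) had the same sign with IM156. The 870 genes called higher by ODN alone had a median of 0.68 there and 0.29 with IM156, and the 385 called lower a median of -0.51 and -0.12. Since they were chosen for passing in the first contrast, their values there are inflated, and the gap between the medians does not by itself show a smaller response. The ODN group also holds 2 unlike libraries, which enter ODN against control directly. Replicate 3 had 1 Xist count, and Rn45s took 1.46% of replicate 2, against 7.98% and 8.42% of replicates 1 and 3.

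The difference of the 2 responses was tested as an interaction, (ODN+IM156 minus IM156) minus (ODN minus control). edgeR called 0 of 11857 genes (smallest adjusted p = 0.131), with 1453 (12.3%) at an unadjusted p below 0.05, while DESeq2 called 165. With no low-count filter edgeR called 276, and without ODN replicate 3 it called 260. Per-gene differences between the responses are thus given as values only. Those with the smallest p were Armc9, Capn11, Gm20199, Rpl30 and Snhg8. Armc9 was at -1.09 with ODN alone and 0.15 with IM156, a difference of 1.24 (SE 0.21). Rpl30 was at 0.58 and -0.04, a difference of -0.62 (SE 0.13). An antisense transcript covers the 3' end of Armc9. Capn11 had 0 counts in all 3 IM156 libraries and 10, 0 and 13 counts with ODN+IM156, so no fold is given.

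The gene lists can be set side by side in the 2 responses. Over all tested genes 7.34% were called higher in ODN against control and 1.74% with IM156. Cytosolic ribosomal protein genes were called higher in 81 of 82 cases in ODN against control (median 0.54) and in none with IM156 (median 0.12), and all 82 interaction values were negative under each alternative (median -0.47). DESeq2 called 58 of the 82 in the interaction, edgeR with no filter 41 and edgeR without ODN replicate 3 40, and the other settings none. Complexes II to V were called in 25 of 42 cases in ODN against control (median 0.39) and in none with IM156 (median 0.00), with all 42 interaction values negative and 13 called by DESeq2, 12 with no filter and 17 without ODN replicate 3. Complex I gave 12 of 37 (median 0.24) and 0 of 37 (median -0.01), with 35 interaction values negative. With library totals in place of TMM scaling, the medians of the 3 lists in the interaction were -0.44, -0.32 and -0.26.

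Mitosis genes had a median of 1.83 in ODN against control, with 62 of 68 called, and 1.18 with IM156, and 65 of 68 interaction values were negative (median -0.55). This difference rested on 1 library. Without ODN replicate 1, whose mitosis genes summed to 9038 CPM against 4664 and 3337 in ODN replicates 2 and 3, the medians were 1.15 and 1.19 and the interaction median 0.03. The S-phase list had an interaction median of -0.35, and of 0.04 without ODN replicate 1. The interaction medians of the ribosomal protein genes and complexes II to V without that library were -0.47 and -0.33.

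Interferon-inducible GTPases had the opposite sign, with 11 of 17 called and a median of 0.61 in ODN against control, 14 of 17 and 1.29 with IM156, and 17 positive interaction values (median 0.78). None of the 17 was called in the interaction; edgeR called 8 without ODN replicate 3 and 9 with no filter, and DESeq2 called 1. The list sum was 945, 896 and 1472 CPM in the 3 ODN libraries, where replicate 3 was highest, and 1308 to 1640 CPM with ODN+IM156. The interaction median was 0.65 to 1.06 on leaving out 1 of the 3 ODN libraries. Type I interferon-stimulated genes had medians of 0.12 and 0.58, with 44 of 53 interaction values positive.

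**Figure D5:**
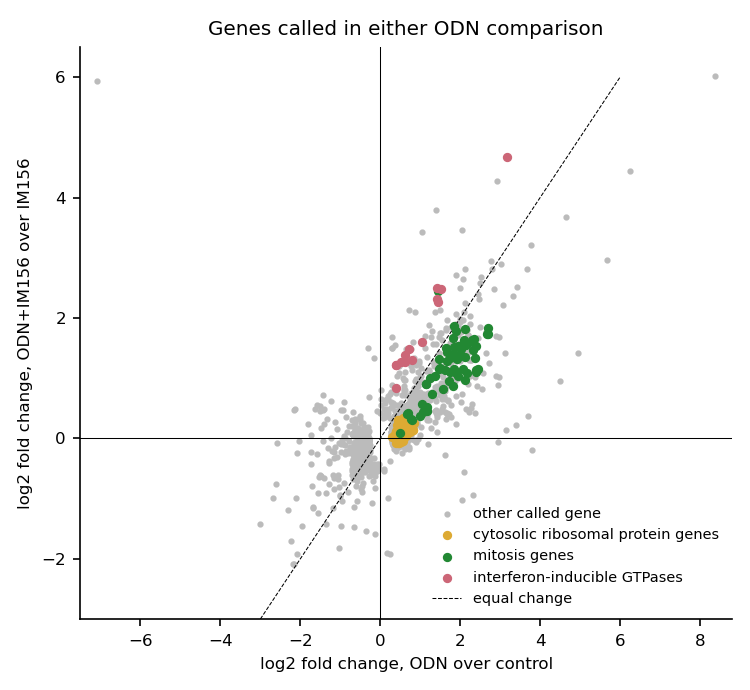
Each point is a gene called in at least 1 of the 2 ODN contrasts, placed by its log2 fold change in ODN over control (horizontal) and in ODN+IM156 over IM156 (vertical); the dashed line marks equal change. Interferon-inducible GTPases (red) lie on or above the line, and mitosis genes (green) and ribosomal protein genes (yellow) mostly below it. Without ODN replicate 1 the interaction median of the mitosis genes was 0.03.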

How the data were processed

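Per the labels' protocols, TRIzol was used for the total RNA and the Lexogen QuantSeq 3' kit for the libraries, which reads the 3' ends of transcripts. Bowtie2, bedtools, edgeR and the GRCm38 (mm10) genome are named in the submitters' processing notes; their versions, the gene models used and how strand was treated are not given in the sources used here, so genes that overlap on opposite strands cannot be told apart. The deposited table holds raw counts per gene in 23282 rows, of which 5883 had no count; the authors' other columns were not used.

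Counts were fitted with edgeR 4.0.16 in R 4.3.3: filterByExpr (11857 genes kept), TMM scaling, and a quasi-likelihood model of all 12 libraries with 1 mean per group (8 residual degrees of freedom). Calls were made at a Benjamini-Hochberg adjusted p below 0.05 over all genes tested. CPM were computed with the scaled library sizes, and tested genes had a median of 258 counts per library. Squared differences between replicates were 4.29 to 10.4 times counting error in IM156 and 4.69 to 6.74 times in ODN+IM156, and 16.2 to 22.2 times in ODN (chi-square per degree of freedom, without Rn45s), so replicates differed by more than counting error. The test was checked on simulated data. Alternatives used DESeq2 1.42.0, other filters, scalings and fits, and each library left out.

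The comparison, the 37 gene lists and the named genes were chosen with earlier results of these data known. The rule names the 12 largest rises and 12 largest falls among called genes with at least 10 CPM in the higher group and no overlap, up to 4 called members of each list at that level, a fixed set of names, and the 5 smallest interaction p-values. Gene positions and promoter windows are from RefSeq (GRCm38.p6), and overlaps on the opposite strand from GENCODE vM21. Some genes that the rule names are not reported here.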

Additional observations from a re-analysis of the deposited data

How the results depend on the processing

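The number of genes called in ODN+IM156 against IM156 lay between 247 and 438 with DESeq2 size factors, library totals alone, a minimum mean of 10 counts, the robust fit, the DESeq2 test and without Rn45s. It was 652 with no low-count filter and 892 in the fit of its 6 libraries. On leaving out 1 library it lay between 114 and 543, the upper values coming from ODN libraries. ODN against control gave 598 in the fit of its 6 libraries and 763 to 1874 on leaving out 1 library. The interaction gave 0 in most settings, 276 with no filter, 165 under DESeq2 and 0 to 260 on leaving out 1 library (2 without ODN replicate 1, 260 without ODN replicate 3).

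Same-numbered IM156 and ODN+IM156 libraries did not deviate together (correlations 0.0193, -0.0371 and -0.018). No label says whether the numbers pair the samples, and 3 libraries per group cannot settle it. With the replicate number as a block, 292 genes were called in ODN+IM156 against IM156, 1155 in ODN against control and 0 in the interaction.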

Other observations

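Of the 293 genes called in ODN+IM156 against IM156, 171 belong to none of the 37 gene lists. The following were chosen from them after their values were seen. H2-Q9, a non-classical MHC class I gene with near-identical relatives that may share its reads, was at 372, 348 and 302 CPM with IM156 and at 979, 941 and 967 with ODN+IM156 (log2 fold change 1.5, SE 0.089, adjusted p = 8.1e-09, edgeR). Ifi47, a further interferon-inducible GTPase, was at 109, 129 and 115 CPM and at 263, 212 and 231. Fgl2, a fibrinogen-like protein, was at 4.09, 4.77 and 4.95 CPM and at 19.6, 19.8 and 11.6. In each of these 3 genes all ODN+IM156 libraries were above all IM156 libraries.

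Among the falls on no list, Sgk1, a kinase gene induced by glucocorticoids, was at 24.6, 24.3 and 23.2 CPM with IM156 and at 15.9, 17.1 and 14.1 with ODN+IM156 (log2 fold change -0.61, SE 0.15, adjusted p = 0.0331, edgeR). The groups did not overlap.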
